A study of Mus musculus with 2 samples.

Results

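Pecam1, Cdh5, Emcn, Icam2, Esam, Erg, Fli1, Egfl7, Ecscr and Plvap are genes that endothelial cells of most vessels use. They were taken by symbol from the deposited gene and isoform tables, where 10 of 10 were found among 43437 genes, each on 1 row. The tables hold RNA-seq of wild-type ICR mice at stage E12.5, with 1 library of each tissue: the whole body, and the telencephalon, which is the front part of the forebrain. The study used this pair to find long non-coding RNAs that differ between the telencephalon and the whole body, and neither sample had any treatment. The labels do not give the number or sex of the fetuses in a library, nor whether the head was part of the whole body. With 1 library a group, replicate error is unknown and nothing was tested. The intervals given here cover the counting of fragments only.

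Endothelial cells line the inside of every vessel and hold to each other through adherens junctions, in which VE-cadherin, the product of Cdh5, binds its like on the next cell. Their identity depends on transcription factors of the ETS family, among them ERG and FLI1, which bind DNA around a GGAA core. The vessels of the early telencephalon do not arise within the neural wall: sprouts from a plexus around the neural tube grow into it, and they then take on the properties of the blood-brain barrier.

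Values are FPKM, in which fragment numbers are scaled to transcript length and to library size, so levels of different genes can be compared per length. The steps of the low values gave an estimate of 29400000 fragments for whole body and 22800000 for telencephalon. At a transcript length of 2000 bases, 3 fragments correspond to 0.0609 FPKM in whole body and 0.0792 FPKM in telencephalon. By these estimates the genes had 204 to 3809 fragments in whole body and 28 to 596 in telencephalon, so the telencephalic values limit the precision. The labelled tissue matched its markers: of 12 telencephalic neural genes, 11 passed 2-fold upward (median log2 ratio 3.45), among them Dlx2, a factor of the ventral telencephalon, with 5.40 FPKM in whole body and 212 FPKM in telencephalon.

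All 10 endothelial genes were lower in telencephalon. Every member of the group passed 2-fold on the log2(FPKM + 1) scale, all downward. Of the 14987 measured genes, those that reached 1 FPKM in whole body or telencephalon, 21.2% passed 2-fold downward and 9.39% upward. At least 4-fold lower on the log2(FPKM + 1) scale were 7 of the 10, against 8.23% of all measured genes. By the plain ratio of FPKM it was 8 of the 10. As log2 of telencephalon over whole body, the median ratio was -2.20 for the 10 genes and -0.16 for all measured genes. Summed over the 10 genes, the level was 223.7 FPKM in whole body and 46.9 FPKM in telencephalon, which is 4.77-fold lower. In bulk tissue, fewer endothelial cells and less RNA of these genes per cell cannot be told apart. Every one of the genes was still detected in telencephalon, at 1.12 FPKM or more.

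**Figure D1:**
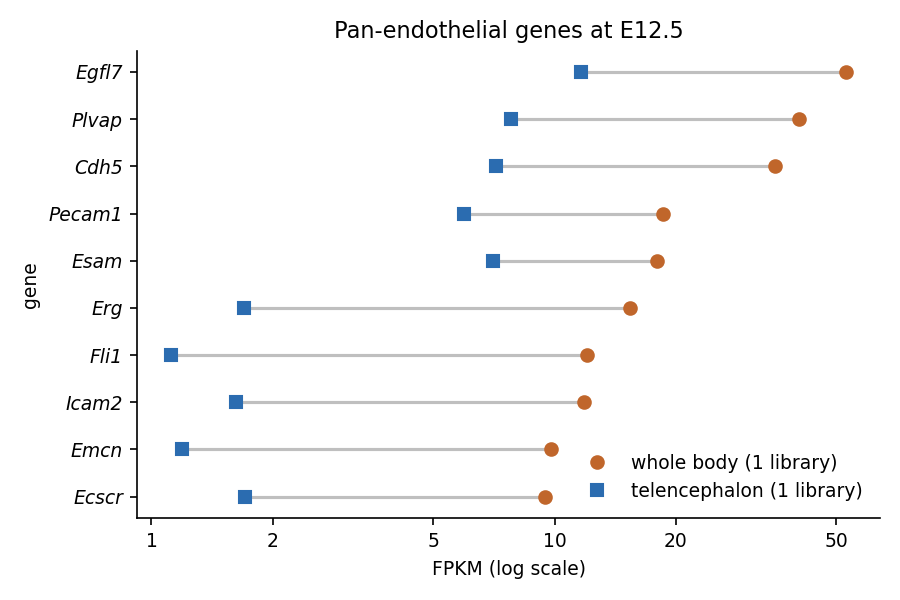
FPKM of the 10 endothelial genes in the whole body library and the telencephalon library, on a log axis, 1 point per library and gene. The telencephalon value lies below the whole body value for each gene, from Egfl7 (52.9 and 11.6 FPKM) down to Ecscr (9.48 and 1.71 FPKM).

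The order of the levels was similar in both libraries. In whole body, Egfl7, with all its isoforms summed, was highest, followed by Plvap and Cdh5. Each of these 3 stood above the next gene beyond the 95% counting interval. Pecam1, Esam and Erg came next. Neighbours among these 3 had overlapping intervals, and Erg lay above Fli1 without overlap. The last 4, Fli1, Icam2, Emcn and Ecscr, overlapped from neighbour to neighbour. In telencephalon the same 5 genes led, with Egfl7 apart from Plvap, while Plvap, Cdh5, Esam and Pecam1 overlapped from neighbour to neighbour. Below a gap after Pecam1 came Ecscr, Erg, Icam2, Emcn and Fli1, all under 2 FPKM and all overlapping with the next. Esam made up 8.03% of the summed level in whole body and 15.0% in telencephalon, and Fli1 5.38% and 2.38%.

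Cdh5, the cadherin of the endothelial adherens junction (GRCm38 chr8:104101625-104144511, + strand), was at 35.3 FPKM in whole body and 7.15 FPKM in telencephalon. It was 4.94-fold lower in telencephalon, with a 95% counting interval of 4.53 to 5.39 from an estimated 3809 and 596 fragments. This is the narrowest interval among the 10, since Cdh5 had the most fragments, and its single listed isoform leaves nothing to divide. Pecam1 (chr11:106654217-106750628, - strand), whose product CD31 sits at cell contacts and is also present on platelets and leukocytes, was at 18.5 FPKM in whole body and 5.97 FPKM in telencephalon. It was 3.11-fold lower (interval 2.77 to 3.49). Esam (chr9:37528078-37538319, + strand), an immunoglobulin-domain protein of endothelial tight junctions and platelets, was at 17.97 FPKM in whole body and 7.05 FPKM in telencephalon. Its ratio was the smallest of the 10, 2.55-fold lower (interval 2.21 to 2.96). Icam2 (chr11:106377656-106388075, - strand), an adhesion molecule that leukocytes bind through the integrin LFA-1, was at 11.8 FPKM in whole body and 1.63 FPKM in telencephalon. It was 7.27-fold lower (interval 5.12 to 10.6), more than Pecam1 and Esam beyond counting error. The junction and adhesion genes therefore spanned 2.55-fold to 7.27-fold.

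Pecam1 RNA differed between the libraries in its isoforms as well as in its level. The leading isoform, Pecam1-203, made up 55.7% of the gene's FPKM in whole body and 47.6% in telencephalon. Pecam1-202 made up 25.4% and 19.5%, and Pecam1-204 12.3% and 9.05%. These 3 were each 3.64-fold to 4.22-fold lower in telencephalon. Pecam1-207 stood apart, at 0.645 FPKM in whole body and 0.754 FPKM in telencephalon, so its share was 3.48% in whole body and 12.6% in telencephalon. It lacks a coding exon of 303 bases (chr11:106697052-106697354) that the other 3 have. A pair of short exons near the end of the coding sequence also divides the isoforms. They are shown because they code for parts of the tail inside the cell, where the protein carries its tyrosine signalling motifs. The sequences, from the GRCm38 genome and on the - strand, are whole exons, so no base is capitalised.
Pecam1 exon 14, chr11:106671742-106671798: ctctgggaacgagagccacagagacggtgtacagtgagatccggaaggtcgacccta
Pecam1 exon 15, chr11:106662002-106662024: atctcatggaaaacagatactct
Isoforms with the 57-base exon 14 (numbered in Pecam1-202) made up 41.1% of Pecam1 in whole body and 41.2% in telencephalon. Isoforms with the 23-base exon 15 (numbered in Pecam1-204) made up 15.8% and 21.7%, counting isoforms with at least 10% of the gene in either library. The share with exon 14 was thus nearly the same in both libraries. The share with exon 15 was higher in telencephalon, and Pecam1-207, which has it, accounts for that difference.

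Emcn, Plvap and Ecscr code for proteins of the endothelial surface. Emcn (chr3:137341067-137432185, + strand) codes for endomucin, a mucin-like glycoprotein best known from veins and capillaries. It was at 9.83 FPKM in whole body and 1.19 FPKM in telencephalon, 8.27-fold lower (interval 6.11 to 11.4). Plvap (chr8:71497765-71511752, - strand) forms the diaphragms of fenestrae and caveolae and is lost from brain vessels as the barrier matures. It was at 40.5 FPKM in whole body and 7.80 FPKM in telencephalon, 5.20-fold lower (interval 4.60 to 5.90). Its interval overlapped that of Cdh5, so the fold of Plvap was not resolved from that of the junction cadherin. Plvap remained the second highest of the 10 genes in telencephalon. Ecscr codes for a small membrane protein that acts in endothelial migration and survival. It was at 9.48 FPKM in whole body and 1.71 FPKM in telencephalon, 5.54-fold lower (interval 3.72 to 8.55). With an estimated 204 and 28 fragments it is the least deeply measured of the 10, and its interval overlaps those of all but Pecam1 and Esam.

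Of the surface genes, Plvap has 1 listed isoform, Ecscr-204 took 100% of Ecscr in both libraries, and Emcn had 2 main isoforms. Emcn-201 was at 6.76 FPKM in whole body and 0.553 FPKM in telencephalon, 12.2-fold lower. Emcn-202, which has a longer transcript of 2588 bases and 1 more coding exon, was at 3.01 FPKM and 0.560 FPKM, 5.37-fold lower. The share of Emcn-202 was 30.6% in whole body and 47.1% in telencephalon. The telencephalic shares rest on an estimated 12.9 fragments for Emcn-201 and 28.8 for Emcn-202. The exon that separates them is shown because it is what the isoform difference adds to or takes from the coding sequence. It is a whole exon on the + strand of GRCm38, so no base is capitalised.
Emcn exon 5 of Emcn-202, chr3:137403984-137404022: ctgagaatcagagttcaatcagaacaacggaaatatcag
Its 39 bases keep the reading frame. They were therefore part of a larger share of Emcn RNA in telencephalon than in whole body, at a lower level in both isoforms.

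Egfl7 (chr2:26580014-26593120, + strand) codes for a secreted protein with EGF-like domains that endothelial cells lay down in the matrix around a growing vessel. It was the most abundant of the 10 in both libraries, at 52.9 FPKM in whole body and 11.6 FPKM in telencephalon. It was 4.54-fold lower in telencephalon (interval 3.86 to 5.38), close to Cdh5 and Plvap. The gene has several first exons and 19 listed isoforms, and these did not move together. Egfl7-216 was at 13.0 FPKM in whole body and 0.740 FPKM in telencephalon, and Egfl7-202 at 12.01 and 1.71 FPKM. Egfl7-212, which begins farther upstream, was at 0.535 FPKM in whole body and 2.54 FPKM in telencephalon, from an estimated 16.8 and 61.1 fragments. Of the 24 isoforms of the 10 genes with at least 10% of their gene in either library, 3 had a higher FPKM in telencephalon: Egfl7-212, Pecam1-207 and Erg-202. Pecam1-207 differed little, at 0.645 FPKM in whole body and 0.754 FPKM in telencephalon, from an estimated 50.9 and 45.9 fragments. The share of Egfl7-212 was 1.01% of Egfl7 in whole body and 21.8% in telencephalon, where it was the leading isoform. Of the shorter isoforms, Egfl7-214 was at 7.66 and 1.63 FPKM and Egfl7-213 at 4.05 and 1.32 FPKM. Both are annotated as retained introns without a coding sequence. Egfl7-211 was at 3.77 and 1.61 FPKM. All of these were lower in telencephalon but less so than Egfl7-216.

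The 250 bases before the 3 Egfl7 start sites in the RefSeq table (build GRCm38.p6, + strand, written 5′ to 3′) are shown because the isoforms that begin there differed in direction. Capitals mark each match to AGGAAG or CGGAAG on either strand, the letters around the GGAA core that ERG and FLI1 are known to prefer.
Egfl7 start site 1, chr2:26580833-26581082: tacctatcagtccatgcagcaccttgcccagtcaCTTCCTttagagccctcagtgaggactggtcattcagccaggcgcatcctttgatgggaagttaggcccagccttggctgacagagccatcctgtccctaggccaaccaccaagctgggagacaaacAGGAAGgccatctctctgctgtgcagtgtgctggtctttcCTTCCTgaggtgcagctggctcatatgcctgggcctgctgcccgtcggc
Egfl7 start site 2, chr2:26583615-26583864: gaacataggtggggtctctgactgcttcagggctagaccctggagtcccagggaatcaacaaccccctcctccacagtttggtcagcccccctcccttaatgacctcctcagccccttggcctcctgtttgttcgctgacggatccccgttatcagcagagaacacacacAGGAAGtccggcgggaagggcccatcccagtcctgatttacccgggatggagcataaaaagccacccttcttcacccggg
Egfl7 start site 3, chr2:26586386-26586635: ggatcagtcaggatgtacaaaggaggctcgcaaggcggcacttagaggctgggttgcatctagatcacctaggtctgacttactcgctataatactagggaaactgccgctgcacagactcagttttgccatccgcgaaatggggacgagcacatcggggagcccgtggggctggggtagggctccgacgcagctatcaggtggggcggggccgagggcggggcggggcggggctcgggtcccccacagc
The isoform that begins within 100 bases of start site 1 is Egfl7-212, with the values above. The window before it holds 3 matches, at 216, 89 and 49 bases from the start site. The 3 isoforms of start site 2 summed to 15.5 FPKM in whole body and 1.87 FPKM in telencephalon, 8.25-fold lower, and their window holds 1 match, at 80 bases. The 4 isoforms of start site 3 summed to 15.7 and 1.35 FPKM, 11.6-fold lower, and their window holds no match. The other 11 isoforms, several of them short, summed to 21.1 and 5.88 FPKM. By the FPKM assigned to their isoforms, start sites 2 and 3 were thus lower in telencephalon, and start site 1 was higher. This rests on the estimated division of shared fragments among isoforms, with 61.1, 44.7 and 16.8 telencephalic fragments for start sites 1, 2 and 3. Isoforms with other starts held 50.5% of the telencephalic FPKM of Egfl7. Of all 32851 RefSeq windows of 250 bases, 39.2% hold at least 1 match and 2.78% hold 3 or more. A match is a description of the letters and not a bound site.

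**Figure D2:**
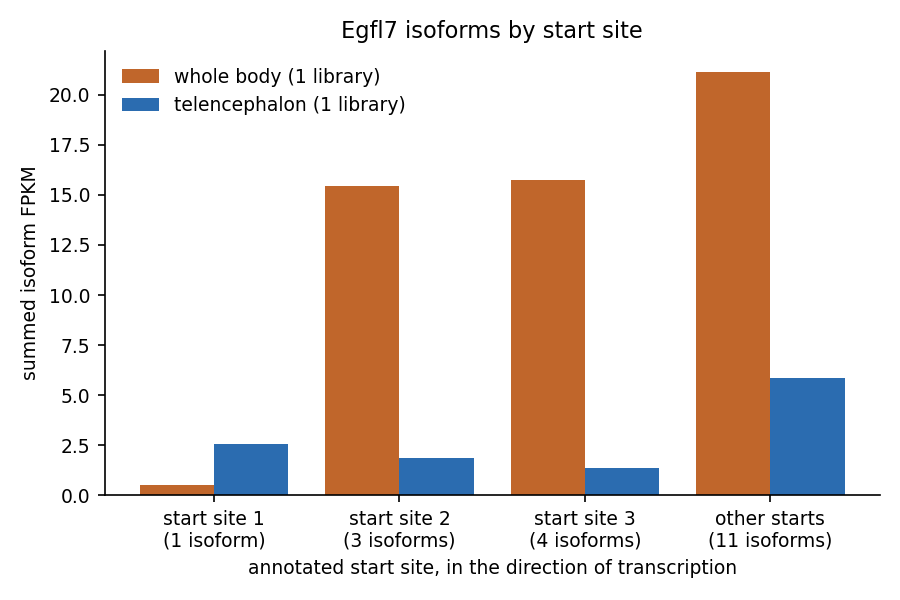
Summed FPKM of the Egfl7 isoforms that begin within 100 bases of each RefSeq start site, and of the isoforms with other starts, in each library. By the estimated division among isoforms, start site 1 is higher in telencephalon (0.535 and 2.54 FPKM). Start sites 2 and 3 are lower (15.5 and 1.87 FPKM, 15.7 and 1.35 FPKM).

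Egfl7 is also the host of miR-126a, a microRNA of endothelial cells that tunes the response to vascular growth factors. Its mature 3p strand is shown with the seed, bases 2 to 8, in capitals, as RefSeq gives it (build GRCm38.p6, + strand).
mmu-miR-126a-3p, chr2:26591402-26591423: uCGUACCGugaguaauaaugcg
The hairpin (chr2:26591357-26591429) lies inside 9 Egfl7 transcripts and within an exon of 1 of them, Egfl7-206. Mir126a itself is listed at 0 FPKM in both libraries, which were made with a kit for long polyadenylated RNA, so its level was not measured here. Of the 3581 exonic bases of Egfl7, 401 are shared with exons of Agpat2, Gm20532, Mir126a or Mir126b. The kit does not mark strand, and the part of these bases in the Egfl7 values was not tested.

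Erg and Fli1 code for the ETS factors of the group. Erg (chr16:95359169-95586593, - strand), which keeps VE-cadherin and other junction genes active in endothelial cells, was at 15.4 FPKM in whole body and 1.70 FPKM in telencephalon. It was 9.06-fold lower (interval 6.73 to 12.4, from the fragments of 5 isoforms). Fli1 (chr9:32422204-32542861, - strand), which acts in endothelial cells and in megakaryocytes, was at 12.03 FPKM in whole body and 1.12 FPKM in telencephalon. It was 10.8-fold lower (interval 8.47 to 13.8). These were the largest ratios of the 10 genes, and both intervals lay above those of Plvap, Cdh5, Egfl7, Pecam1 and Esam. The intervals are placed around the FPKM ratio. Scaled by depth, the estimated fragments themselves gave 6.74-fold for Fli1 and, from isoforms with a length, 3.93-fold for Erg, both below the printed intervals. How large the ratios are depends on how the fragments were divided among isoforms. For Fli1, the short isoform Fli1-202, of 878 bases, was at 5.55 FPKM in whole body and 1.65e-06 FPKM in telencephalon, less than 1 fragment. The long isoform Fli1-201 alone was at 6.48 and 1.12 FPKM, 5.79-fold lower. For Erg, 4 of 9 listed isoforms are not in the annotation used here and have no length. They held 62.2% of the whole body FPKM of Erg and 7.81% of its telencephalic FPKM. The 5 isoforms with a length summed to 5.82 FPKM in whole body and 1.57 FPKM in telencephalon, 3.71-fold lower. On those values Fli1 and Erg were also lower in telencephalon, within the range of the other 8 genes (2.55-fold to 8.27-fold).

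Among Erg isoforms the leading one differed between the libraries. In whole body it was ENSMUST00000077773, at 6.49 FPKM, and in telencephalon this isoform was at 0.0346 FPKM. ENSMUST00000113846 was at 2.75 FPKM in whole body and 2.7e-05 FPKM in telencephalon. In telencephalon Erg-203 led, with 1.06 FPKM against 3.45 FPKM in whole body, so that its share was 22.4% in whole body and 62.1% in telencephalon. Erg-204 was at 0.388 FPKM in whole body and 0.184 FPKM in telencephalon. Erg-202 was at 0.294 FPKM in telencephalon, which is an estimated 6.91 fragments, and at less than 1 fragment in whole body. Erg-203 includes an exon of 72 bases that Erg-202 and Erg-204 lack. This exon and the window before the Erg-203 start site (build GRCm38.p6) are shown because Erg-203 carried most Erg RNA in telencephalon. Both are on the - strand, and capitals in the window mark the match to AGGAAG.
Erg exon 6 of Erg-203, chr16:95377301-95377372: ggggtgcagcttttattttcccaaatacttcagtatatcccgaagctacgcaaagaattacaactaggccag
Erg start site 3, chr16:95459349-95459598: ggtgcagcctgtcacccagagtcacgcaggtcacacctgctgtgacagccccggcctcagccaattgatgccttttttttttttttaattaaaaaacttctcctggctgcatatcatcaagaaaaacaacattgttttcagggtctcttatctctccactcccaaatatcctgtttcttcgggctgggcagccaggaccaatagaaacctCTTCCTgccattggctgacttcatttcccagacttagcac
The match lies 40 bases from the start site. The windows before the other 2 Erg start sites in RefSeq hold none, and Erg-201, which begins at start site 2, was at 1.28 FPKM in whole body and 0.0335 FPKM in telencephalon. Windows were matched for 3 of the 10 genes, Egfl7, Emcn and Erg, and 4 of their 7 windows hold a match, against 39.2% of all windows. The Emcn window holds 2, at 174 and 93 bases.

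**Figure D3:**
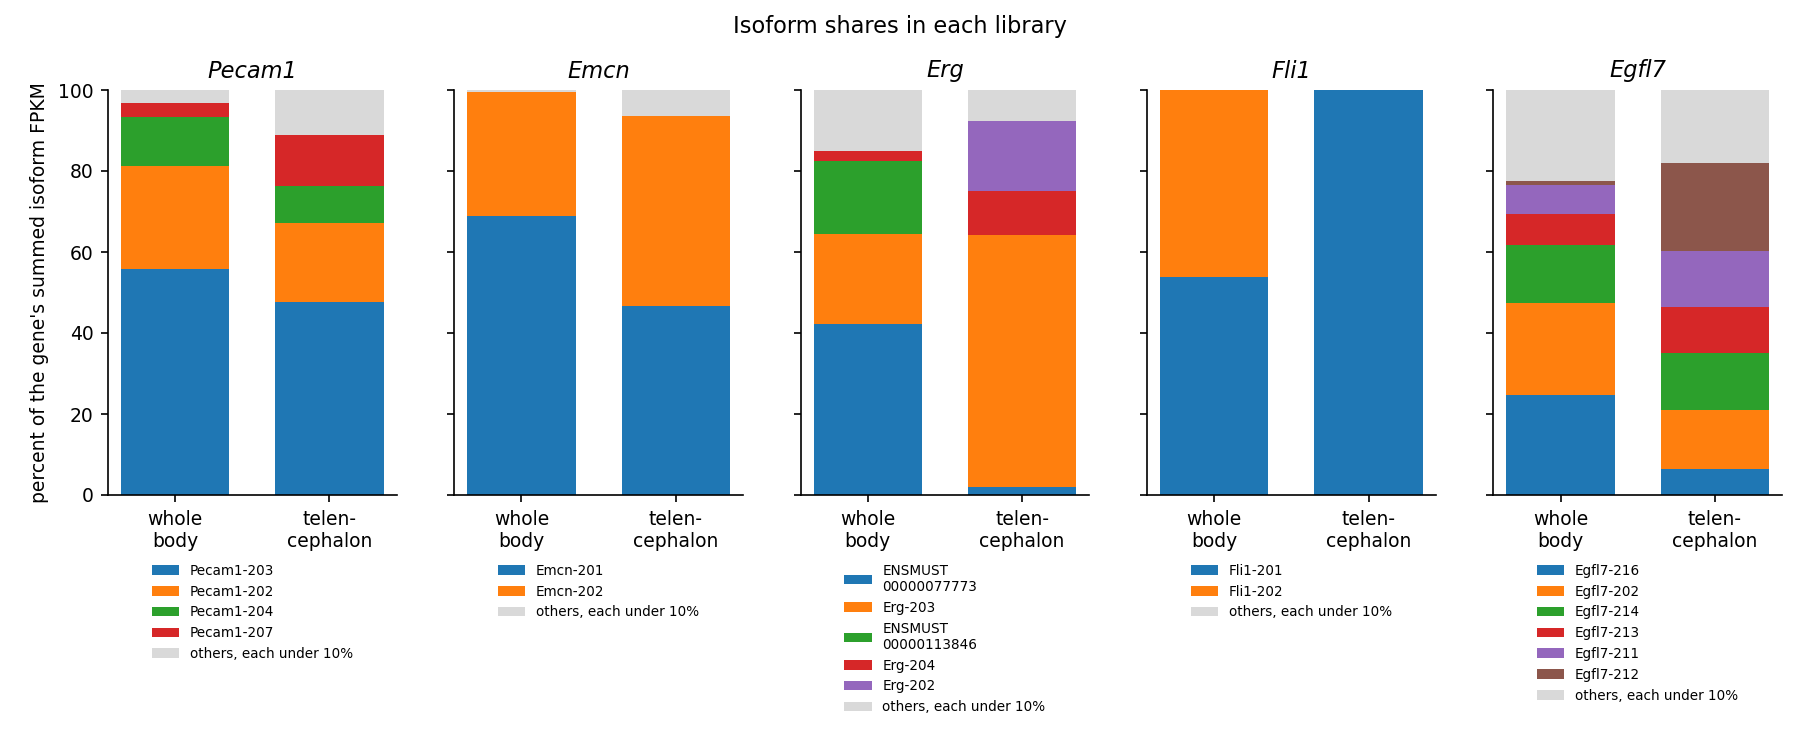
Share of each gene's FPKM, in percent, held by its isoforms in each library for Pecam1, Emcn, Erg, Fli1 and Egfl7. Telencephalon has a larger share of Pecam1-207 (3.48% and 12.6%), Emcn-202 (30.6% and 47.1%), Erg-203 (22.4% and 62.1%) and Egfl7-212 (1.01% and 21.8%).

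Over the 10 genes, 59 isoforms are listed, and 24 of them held at least 10% of their gene in 1 of the libraries. The leading isoform was the same in 7 genes, and differed in Emcn, Erg and Egfl7. Cdh5 and Plvap have 1 isoform each. Icam2-201 held 97.0% and 100% of its gene, and Esam-201 98.8% and 97.8%. For these 4 genes and Ecscr the ratio between the libraries hardly depends on a division among isoforms. Their folds ran from 2.55 (Esam) over 4.94 (Cdh5), 5.20 (Plvap) and 5.54 (Ecscr) to 7.27 (Icam2).

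The ratios of the 10 genes were not all alike. From the largest to the smallest they differed 4.22-fold. Of the 45 pairs of genes, 25 had counting intervals that did not overlap. Pecam1 and Esam account for 16 of these pairs, since each lay below the 8 other genes. The other 9 set Fli1, Erg and Emcn above Plvap, Cdh5 and Egfl7. On estimated fragments scaled by depth, the folds of Plvap, Cdh5 and Egfl7 were 5.24, 4.95 and 4.84. Those of Fli1 and Emcn were above them at 6.74 and 6.78. That of Erg, from isoforms with a length only, was below them at 3.93. The isoform shares of Fli1, Erg and Emcn differed between the libraries, as did those of Egfl7 and Pecam1. Between neighbours in the order, 8 of 9 intervals overlapped, and the exception lay between Egfl7 and Pecam1.

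**Figure D4:**
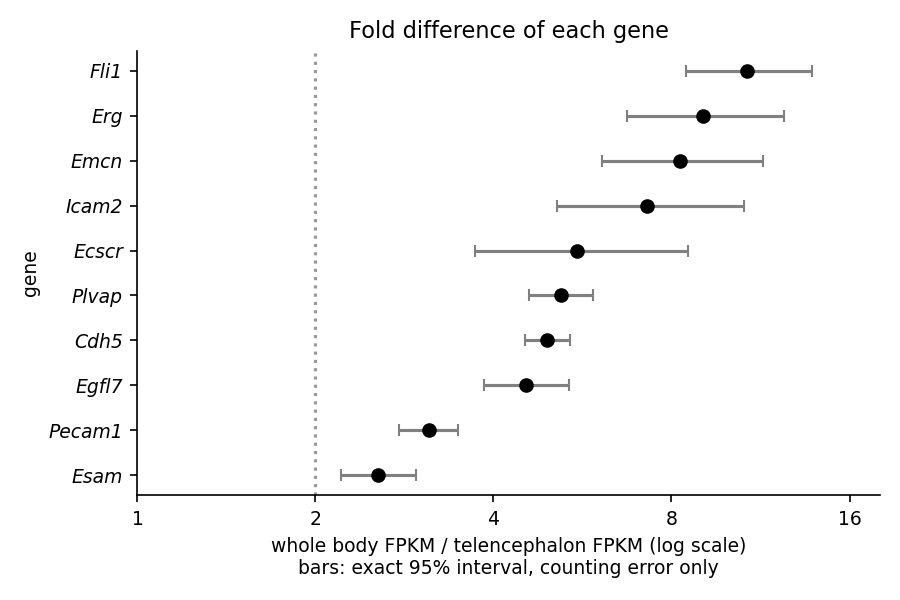
Ratio of whole body to telencephalon FPKM for the 10 genes on a log axis, with bars for the 95% counting interval at a fixed division among isoforms and a dotted line at 2-fold. Pecam1 (3.11-fold) and Esam (2.55-fold) lie below the 8 others, which run from 4.54-fold (Egfl7) to 10.8-fold (Fli1).

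Other genes that most endothelial cells use were also lower in telencephalon. Of 40 such genes, all measured, 25 were at least 2-fold lower and none at least 2-fold higher. Their median log2 ratio was -1.39, against -2.20 for the 10 genes and -0.16 for all measured genes. The lowest was Tal1, a factor of blood and endothelial precursors, with 41.2 FPKM in whole body and 1.70 FPKM in telencephalon. Adgrl4, an adhesion receptor of sprouting vessels, was the other way, with 8.64 FPKM in whole body and 13.7 FPKM in telencephalon. The 5 whose log2 ratio was nearest to the median of the 10 were Lmo2 (25.6 and 4.28 FPKM), Calcrl (5.34 and 0.522 FPKM), Clec14a (5.08 and 0.470 FPKM), Tinagl1 (15.5 and 3.12 FPKM) and Hhex (3.45 and 0.240 FPKM). The endothelial receptors Kdr, Tie1 and Tek, named after their values were seen, were 2.86-fold, 3.12-fold and 3.54-fold lower, beside 2.55-fold for Esam and 3.11-fold for Pecam1. Gpihbp1, which anchors lipoprotein lipase on capillaries, is listed at 0 FPKM in telencephalon and 2.43 FPKM in whole body.

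Genes of the blood-brain barrier were mixed: of 15 measured, 7 were at least 2-fold lower and 1 was at least 2-fold higher, with a median log2 ratio of -0.999. The 1 higher gene was Mfsd2a, a lipid transporter of the barrier, with 6.56 FPKM in whole body and 22.0 FPKM in telencephalon. Within 2-fold were 7, among them Cldn5, named after its value was seen, with 27.2 and 24.4 FPKM. Itm2a (164 and 9.33 FPKM) and the transferrin receptor gene Tfrc (64.3 and 11.8 FPKM), both of which other cell types also use, were the lowest of this list. Arterial and tip cell genes had 4 of 10 lower and 1 higher (median -0.92), from Gja5 (10.8 and 0.903 FPKM) and Hey2 (7.55 and 1.17 FPKM) to Efnb2 (34.6 and 72.8 FPKM), which neural cells also use. Venous and lymphatic genes had 5 of 10 lower and 1 higher (median -0.73). They ran from Ephb4 (53.7 and 6.76 FPKM) and Lyve1 (4.99 and 0.0387 FPKM) to Nr2f2 (48.3 and 106 FPKM). Prox1 (5.22 and 9.29 FPKM), Pdpn (9.51 and 17.3 FPKM) and Reln (14.9 and 16.7 FPKM), named after their values were seen, were higher by less than 2-fold. This list holds genes that other cells also use, so its median is not that of venous or lymphatic cells alone. Gene lists of endothelia outside the brain had lower medians than the 10. They are short and hold genes that other cells also use. Liver sinusoid genes had 5 of 6 lower with a median of -2.61, led by Stab1 (33.3 and 2.87 FPKM). They include Mrc1, which is also on the macrophage list. Endocardial genes had 6 of 6 lower with a median of -2.71, led by Hapln1 (19.5 and 0.0558 FPKM), which cartilage also uses, and Cytl1 (13.3 and 0.0689 FPKM). On the pseudocount scale, the endocardial median without Nfatc1, their gene highest in telencephalon, was -2.02, not below that of the 10. That median was added after seeing the data. In FPKM, the smallest fold of the endocardial list was 7.55, for Tbx20, beside a median fold of 5.37 for the 10. Pericyte genes, which mark the cells that wrap capillaries, had 5 of 9 lower with a median of -1.07. They ran from Anpep (16.2 and 0.285 FPKM) and Pdgfrb (38.0 and 4.88 FPKM) to Rgs5 (3.41 and 2.67 FPKM).

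ETS factor genes as a family, a list that contains Erg and Fli1, had 10 of 19 measured members at least 2-fold lower and none higher, with a median of -1.18. Fli1 and Erg had the lowest log2 ratios of the 19, at -2.62 and -2.60, closely followed by Elk3, named after its value was seen, at -2.60 (28.3 and 3.84 FPKM). Etv1, a factor also found in neurons, had 2.57 FPKM in whole body and 5.59 FPKM in telencephalon. Etv2, which starts the endothelial programme in the early embryo, is listed at 0 FPKM in both libraries.

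Several of the 10 genes are also active in blood cells, and markers of those cells were lower in telencephalon as well. Of 12 measured genes of megakaryocytes and platelets, which also hold Pecam1, Esam, Icam2 and Fli1, 10 were at least 2-fold lower and 1 higher. Their median log2 ratio was -2.24, close to that of the 10 genes on the pseudocount scale. That scale understates low genes, here and in the lists that follow. In FPKM, Itga2b and Gp5, the genes on either side of that median, were 8.39-fold and 27.4-fold lower. The median fold of the 10 was 5.37. The summed level of the megakaryocyte and platelet genes was 151 FPKM in whole body and 54.4 FPKM in telencephalon. Pf4, a platelet chemokine, had 57.3 and 2.64 FPKM and Ppbp 19.8 and 0.177 FPKM, while Gp1bb had 18.6 and 46.2 FPKM. Gp1bb thus held 84.8% of the telencephalic sum, and without it the sums were 132 and 8.26 FPKM, 16.02-fold lower in place of 2.77-fold. Treml1 is listed at 0 FPKM in telencephalon. Macrophage and leukocyte genes had 14 of 16 lower (median -1.83, sums of 182 and 38.5 FPKM), from Lyz2 (14.6 and 0.378 FPKM) and Tyrobp (21.5 and 2.70 FPKM) to the microglial gene P2ry12 (1.11 and 0.946 FPKM). Blood stem and progenitor genes had 6 of 8 lower (median -1.78, sums of 78.5 and 19.8 FPKM), from Gfi1b (24.3 and 0.0980 FPKM) and Mecom (13.7 and 0.916 FPKM) to Kit (11.8 and 12.6 FPKM), without which the sums were 66.7 and 7.22 FPKM. Cartilage and connective tissue, where Erg and Fli1 are also active, was at low levels in the telencephalon library. Of its 16 genes 15 were lower, with a median of -5.51 and sums of 2538 and 49.1 FPKM, or 2512 and 27.6 FPKM without Sox9. Genes of the meninges and choroid plexus had 9 of 11 lower, with a median of -3.08 and sums of 300 and 13.1 FPKM, or 296 and 7.39 FPKM without Otx2. These sums without the gene highest in telencephalon were added after seeing the data. The part of these cell types in the ratios of the 10 genes was not tested.

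**Figure D5:**
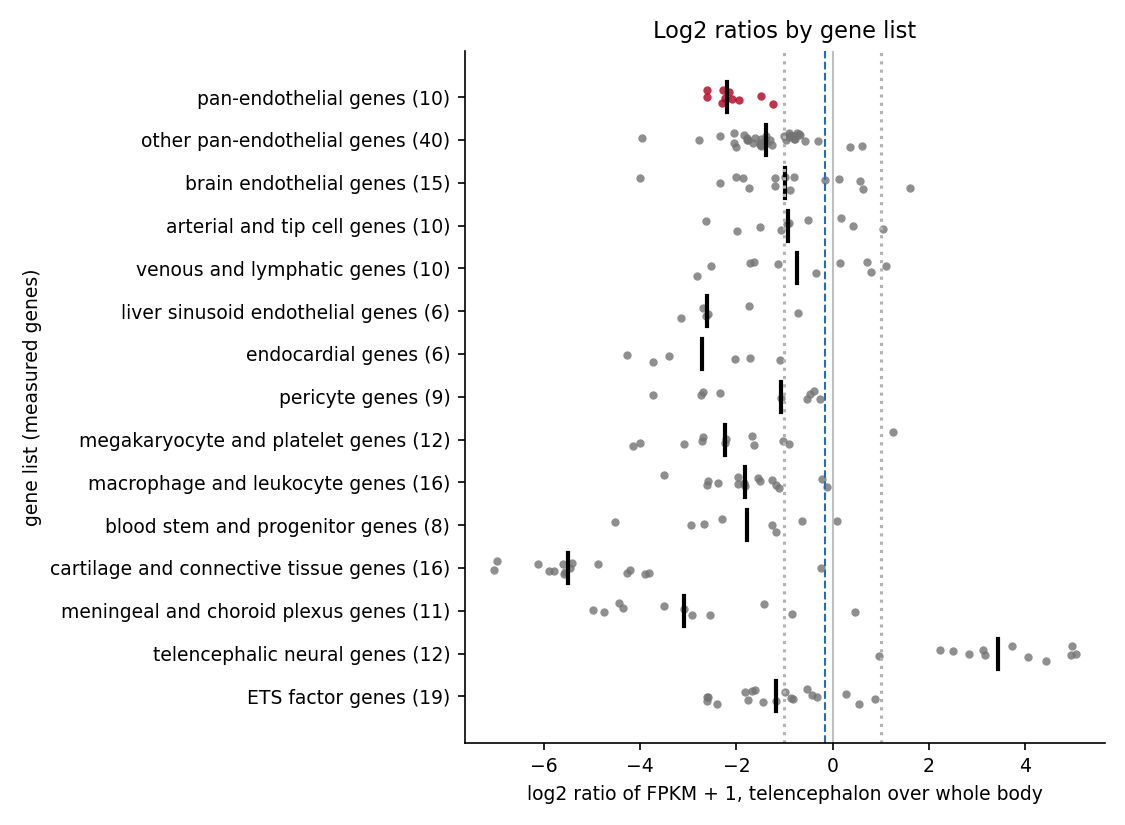
Log2 ratio of telencephalon to whole body, log2(FPKM + 1), for the measured genes of each list, 1 point per gene, with a black bar at each list's median, dotted lines at 2-fold and a dashed line at the median of all measured genes (-0.16). On this scale, which understates low genes, the 10 pan-endothelial genes (median -2.20) lie near the megakaryocyte and platelet genes (-2.24). They lie below the other pan-endothelial genes (-1.39) and above cartilage and connective tissue (-5.51).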

How the data were processed

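RNA from 1 whole body and 1 telencephalon sample of ICR mice was sequenced with a TruSeq v2 kit on a HiSeq 2000, per the labels' protocols. Libraries of this kit come from polyadenylated RNA and carry no strand information. The authors deposited FPKM per gene and per isoform, made with TopHat, Cufflinks and Cuffdiff on GRCm38, per the submitters' processing notes. Versions and the annotation release are not given in the sources used here. Cufflinks divides shared fragments among isoforms by estimation, so an isoform value near 0 can be the outcome of that division.

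Genes were matched to GENCODE M21 on Ensembl identifiers (42276 of 43437), with Python 3.11.15, pandas 2.3.3 and scipy 1.17.1. A gene was measured at 1 FPKM or more in either library. Ratios are log2 with a pseudocount of 1 FPKM, which understates low genes, and folds in the text are ratios of FPKM. A difference was counted past 2-fold or 4-fold on the pseudocount scale. Depth was fitted to FPKM steps of single-isoform genes. On genes left out of that fit, 89.4% of 724 values in whole body and 89.1% of 882 in telencephalon were whole fragments within 0.1, where chance gives 20%. Exact binomial 95% intervals were made from estimated fragments, which are not independent molecules, and for Erg only from isoforms with a length. They were then shifted to lie around the FPKM ratio, which can differ from the ratio of the fragments. Intervals of levels are exact Poisson. The scripts were tested on simulated data.

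The 10 genes and the 14 gene lists were chosen with earlier results of these data known. Of 204 list symbols 2 were not analysed here and 3 were read under another name. Named were all 10 genes, from each list the 2 lowest and the highest log2 ratios, and the 5 other pan-endothelial genes nearest to the median of the 10, with some of these left out of the text. Alternatives changed the pseudocount, scaling, filter, threshold and the use of isoforms under 300 bases.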

Additional observations from a re-analysis of the deposited data

How the results depend on the processing

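With 1 library per group no library could be left out. No paired analysis was possible because each group has 1 library. The count of 10 genes at least 2-fold lower was 9 with a pseudocount of 5 FPKM (Esam at -0.93) and 9 with scaling to a common median of protein-coding genes (Esam at -0.99), and 7 were at least 4-fold lower. It was 10 with a pseudocount of 0.1 FPKM, a common upper quartile or TPM. It was also 10 with no isoforms under 300 bases, no filter or a filter of 5 FPKM, but these settings could not change it. None of the 10 genes has an isoform known to be that short, and all were at 9.48 FPKM or more in whole body. The median log2 ratio of the 10, -2.20, was -2.38 with a pseudocount of 0.1 FPKM, -1.41 with 5 FPKM and -1.94 with the common median, a scaling that put the median of all measured genes at 0.11 in place of -0.16. The other settings gave -2.20 to -2.11. On estimated fragments scaled by depth, added after seeing the data and without Erg, it was -2.16, with 9 of 9 genes lower and Fli1 at -2.23 in place of -2.62. Of 69 values of single genes under these settings, 23 left the counting interval and 0 changed direction. The 69 include the values without isoforms under 300 bases, which could not leave it. A pseudocount cannot change the direction of a ratio. Neither could the scalings to the upper quartile and the common median, by 1.05 and 1.22, which are below every fold of the 10. The leading isoform was the same in 7 genes. Leaving out isoforms under 300 bases could not change this, as none of the 10 genes has an isoform known to be that short. The telencephalic fragments of Ecscr, Icam2, Emcn and Erg limit what their ratios can resolve.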
